A study of Mus musculus with 7 samples.

Results

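Knockdown of Dis3l2 was examined in whole cells of RAW264.7, a mouse macrophage line. The comparison set 1 library of cells with an shRNA against Dis3l2 (shDis3l2) beside 1 library of cells with a non-silencing shRNA (shNS), so 2 of the 7 libraries of the series are its members. The other 5 libraries hold RNA of extracellular vesicles (EVs): 2 from the same shNS and shDis3l2 lines, and 3 from shDis3l2 lines that also carry an empty vector, an shRNA-resistant Dis3l2 transgene (Dis3l2r) or its D389N mutant, which the labels call catalytically inactive. All lines received doxycycline at 1 µg/mL, for 3 days and then through 24 h in medium with EV-depleted serum, after which the cells were taken for RNA. Both cell libraries are total RNA after rRNA depletion, copied from 50 ng by template switching with a group II intron enzyme that reads through structured RNA. The labels' extract protocol names this enzyme as Induro, while the series' design text speaks of TGIRT, another enzyme of the same kind. The labels do not say whether a line is 1 clone or a pool. With 1 library in each group no difference could be tested against replicate spread, and every interval given here is a 95% interval for counting error only.

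Dis3l2 is a cytoplasmic exoribonuclease that degrades RNA from the end that carries an oligouridine tail. Its known substrates are structured noncoding RNAs that carry such a tail, among them a precursor microRNA and several transcripts of RNA polymerase III. That polymerase also makes tRNAs, 4.5S RNA and the RNAs of short interspersed repeats (SINEs). tRNAs decode codons during translation. A few tRNA families are made with an intron that must be spliced out before the tRNA can work.

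The deposited table gives estimated counts for 3894 whole RNAs: 3639 Ensembl transcripts without a gene name, 224 tRNA genes, 15 spliced tRNAs, 15 SINE rows and 4.5S RNA. Of these, 2943 stood at 0 in both cell libraries, 379 had 1 to 19 counts over both, 59 had 20 to 99 and 513 had at least 100. The shNS library held 37041326 whole-RNA counts and the shDis3l2 library 32342600. A count of 0 in shNS cells allows a share of up to 8.1e-06% of whole-RNA counts. In exon pieces the shNS cell library stood apart from the other 6 libraries. Pieces of exons held 0.0375% of all its counts, against 0.713% to 1.23% in the others. Whole-RNA rows above 0 set it less apart. They numbered 710 in shNS cells, 888 in shDis3l2 cells and 742 to 815 in the EV libraries. Dis3l2 itself and markers of macrophages or of other cell types could not be checked, since 0 of 3639 transcript IDs were matched to a gene name. Fewer cells of a type and less RNA per cell cannot be told apart in these bulk libraries.

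The makeup of cellular RNA differed most in its most abundant RNAs. A single transcript, ENSMUST00000083988, held 7150534 counts or 19.3% in shNS cells, and 14899003 counts or 46.1% in shDis3l2 cells. A run of 24 transcripts with neighbouring IDs, from ENSMUST00000082387 to ENSMUST00000082423, went the other way. It held 14250404 counts or 38.5% in shNS cells and 2973559 counts or 9.19% in shDis3l2 cells. Named tRNA rows, spliced ones included, held 13.7% (5083651 counts) and 9.09% (2941267 counts). All other transcripts together held 28.3% and 35.5%. These are shares of counts within a library, not corrected for length.

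Because so much of each library lay in these few RNAs, the size of every ratio between libraries depended on the scaling. The trimmed mean of M values (TMM), which leaves out the rows that differ most, put the shDis3l2 library at 0.726 of the shNS library. Totals without the largest row put it at 0.584. Ratios with the second scaling are therefore higher by 0.31 on the log2 scale. Values below are log2 ratios of shDis3l2 over shNS with TMM unless stated otherwise. The rule of size asked for 100 or more counts summed over the pair, a 2-fold or larger difference, and an interval that did not include 0. Of 513 rows, 60 were higher (11.7%) and 123 lower (24%) with TMM, and 108 (21.1%) and 74 (14.4%) with totals without the largest row. With totals 33 were higher (6.43%) and 179 lower (34.9%). Under every scaling tried other than exon-piece totals, 28 rows were higher (5.46%) and 74 lower (14.4%). Those 28 were 24 transcripts, 3 tRNAs and 1 SINE row, and the 74 were 62 transcripts, 11 tRNAs and 1 spliced tRNA. At the limit itself, the last lower row inside it was spliced tRNA-Leu-CAA-2-1 at -0.999, and the first transcript past it stood at -1.01. Among higher rows the last inside stood at 0.97 and the first past at 1.005, both transcripts.

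Levels of 22 of the 24 transcripts of the run were lower in shDis3l2 cells past the rule, against 24% of all rows measured, and they were so under every scaling tried. This run was picked out after its values were seen. ENSMUST00000082387 had 516039 counts in shNS cells and 87869 in shDis3l2 cells, a log2 ratio of -2.09 (-2.10 to -2.08). ENSMUST00000082423 had 974866 and 179151 counts, at -1.98 (-1.99 to -1.97). The 22 rows lay between -2.23 and -1.45 with a median of -1.83, a narrow band next to a spread of rows that reached from 79156 to 2324034 counts in shNS cells. The other two were the second and the fourth by ID. The second had 3929 and 1855 counts (-0.62, -0.70 to -0.54), and the fourth 15108 and 13171 counts (0.26, 0.23 to 0.30). The summed run stood at -1.80 with TMM, at -1.48 with totals without the largest row and at -2.07 with totals.

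The same run was not lower in EVs of the knockdown line. All 24 rows lay above 0 in shDis3l2 over shNS EVs, between 0.41 and 1.02, and their sum went from 23602 to 28509 counts (0.73, 0.70 to 0.75). The run held 0.0997% of whole-RNA counts in shNS EVs and 0.155% in shDis3l2 EVs, a small share in both. Between the first and last ID of the run, 12 exon pieces are also listed. They belong to other transcripts, whose IDs are not among the 24, so they say nothing on these whole rows. In cells these 12 pieces summed to 2494 counts in shNS and 6136 in shDis3l2. Their direction depended on the scaling. With the TMM of the whole RNAs, used for the run itself, 12 of 12 lay above 0, at a median of 1.99. With the TMM of the exon pieces 12 of 12 also lay above 0, at a median of 1.40. With the totals of the exon pieces 12 of 12 lay below 0, at a median of -2.82. How reads were divided between whole rows and pieces is not given in the sources used here.

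**Figure D1:**
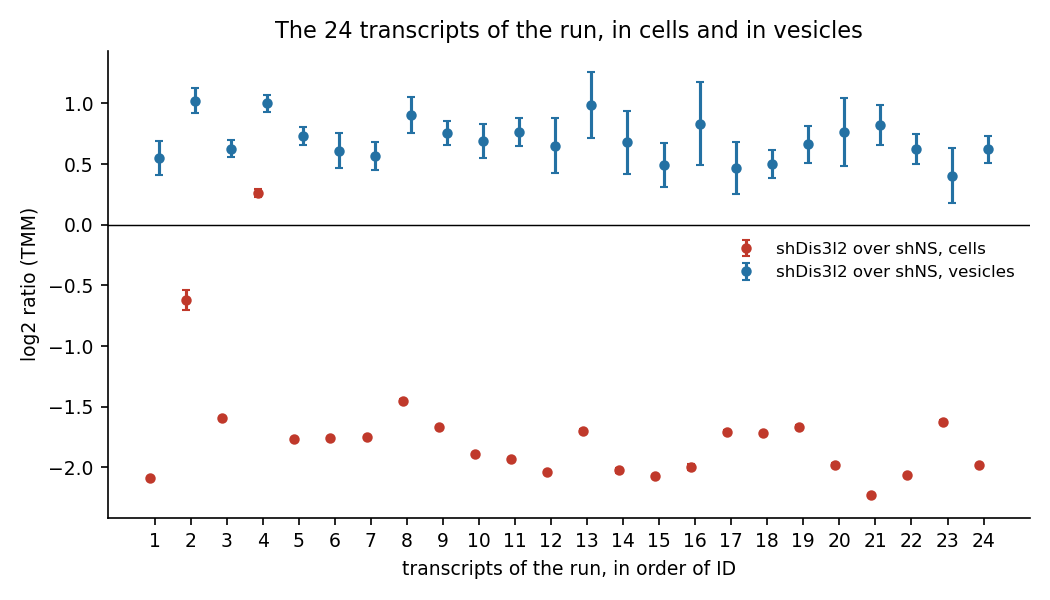
Log2 ratio of shDis3l2 over shNS (y axis, TMM within each pair) for the 24 transcripts of the run in order of their IDs (x axis), in cells (red) and in EVs (blue), with 95% counting intervals and 1 library per group. In cells 23 points lie below 0, and in EVs all 24 lie between 0.41 and 1.02.

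The median tRNA row lay below 0 in shDis3l2 cells, by an amount that depended on the scaling. Of 224 tRNA rows, 15 were at 0 in both libraries, 58 had 1 to 99 counts and 151 were measured. With TMM 7 were higher and 28 lower, beside 11.7% and 24% of all rows. With totals without the largest row 9 were higher and 11 lower, beside 21.1% and 14.4%, and with totals 4 and 54, beside 6.43% and 34.9%. The median over the 170 rows with at least 20 counts was -0.41 with TMM, -0.10 without the largest row and -0.68 with totals, beside -0.09, 0.22 and -0.36 over all whole-RNA rows. It was -0.76, beside -0.44, with totals that left out both the largest row and the run. The 28 lower rows came from 15 anticodon families and summed to 952999 counts in shNS cells and 308679 in shDis3l2 cells. The 7 higher rows came from 6 families and summed to 154146 and 307083 counts.

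The share of each amino acid within the tRNA pool does not depend on the scaling between libraries. The pool here is the counts of all named tRNA rows, spliced ones included. Any tRNA among the transcripts without a gene name is left out of it, so these are not shares of all tRNA in the cell. Arginine tRNAs made up 9.77% of the pool in shNS cells (9.75% to 9.80%) and 15.5% in shDis3l2 cells (15.4% to 15.5%). Glutamate tRNAs made up 6.38% and 10.3%, and alanine tRNAs, the largest group in both libraries, 18.7% and 20.7%. Shares of the selenocysteine tRNA (2.48% and 3.52%), tyrosine tRNAs (1.10% and 1.82%) and phenylalanine tRNAs (0.152% and 0.252%) were also higher. Initiator methionine tRNA, which starts translation, kept to 4.67% and 4.68%. Glycine (13.1% and 10.9%), lysine (6.17% and 3.84%), proline (5.68% and 3.56%) and aspartate tRNAs (1.92% and 1.08%) held smaller shares in shDis3l2 cells. Over the 22 isotypes measured, 8 held a larger share and 14 a smaller one.

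By anticodon, 2 families were higher past the rule in shDis3l2 cells (3.85% of the 52 measured), and both read arginine codons. Arg-CCG summed to 105648 counts in shNS cells and 172835 in shDis3l2 cells, a log2 ratio of 1.17 (1.16 to 1.18), or 1.49 with totals without the largest row. Arg-CCT summed to 103071 and 159903 counts, at 1.10 (1.08 to 1.11) and 1.41. Both fell inside the rule with totals, at 0.91 and 0.83, and with totals without the largest row and the run, at 0.82 and 0.75. Spliced Tyr-GTA came next at 0.67 (0.65 to 0.70), followed by Glu-CTC at 0.49 (0.48 to 0.50). Spliced Tyr-GTA and Glu-CTC stood inside the rule with TMM.

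With TMM 9 families were lower (17.3%), and with totals without the largest row 0 were (0%). Gln-TTG went from 90795 to 26593 counts, the lowest ratio at -1.31 (-1.33 to -1.29), or -0.99 without the largest row. Val-CAC stood at -1.17 (-1.20 to -1.14), Asp-GTC at -1.16 (-1.18 to -1.14) and Thr-TGT at -1.13 (-1.17 to -1.10). Pro-TGG (-1.07), Val-AAC (-1.07), Lys-CTT (-1.06), spliced Leu-CAA (-1.01) and Trp-CCA (-1.004) lay just past the limit. In all 40 of 52 families lay below 0 with TMM, 34 without the largest row and 47 with totals. Families for one amino acid did not share a direction: Arg-TCG stood at -0.90 and Arg-ACG at -0.69, on the other side of 0 from Arg-CCG and Arg-CCT.

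**Figure D2:**
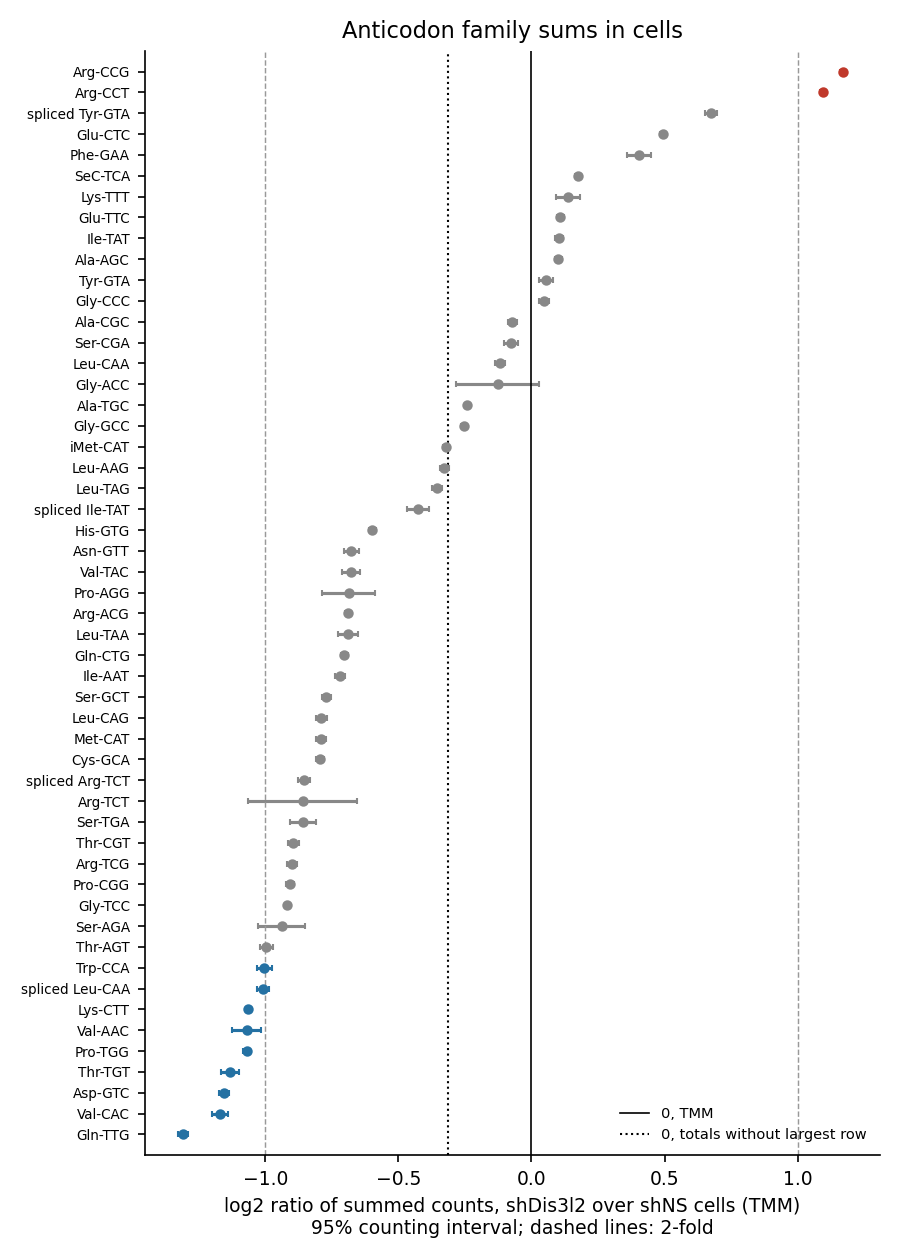
Log2 ratio of summed counts, shDis3l2 over shNS cells with TMM (x axis), for the 52 anticodon families with at least 100 counts (y axis), with 95% counting intervals and 1 library per group. Red points (Arg-CCG and Arg-CCT) are higher and the 9 blue points lower past the 2-fold limits (dashed). The dotted line marks where 0 would lie with totals without the largest row.

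Both arginine families owed their ratio to 1 row each. tRNA-Arg-CCG-3-1 had 71299 counts in shNS cells and 152428 in shDis3l2 cells (1.56, 1.55 to 1.57), and the other two Arg-CCG rows went from 34349 to 20407 counts in sum (-0.29, -0.31 to -0.26). tRNA-Arg-CCT-4-1 had 76042 and 144039 counts (1.38, 1.37 to 1.40), and the other Arg-CCT rows 27029 and 15864 in sum (-0.31, -0.33 to -0.28). As shares of their families, tRNA-Arg-CCG-3-1 went from 67.5% to 88.2% and tRNA-Arg-CCT-4-1 from 73.8% to 90.1%. Near-identical tRNA genes share reads, so the division of counts between rows of a family is less certain than their sum.

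The row that led its family differed in share by over 10 percentage points between the libraries in 8 of the 38 families with more than 1 row of at least 100 counts. In Ala-AGC, tRNA-Ala-AGC-3-1 held 40.2% of the family in shNS cells (39.9% to 40.5%) and 63.9% in shDis3l2 cells (63.6% to 64.2%), while the summed family stood at only 0.10 (0.09 to 0.11). Its members spread widely, from tRNA-Ala-AGC-6-1 at -1.48 (-1.54 to -1.43; 13421 and 3485 counts) and tRNA-Ala-AGC-4-1 at -1.48 (-1.52 to -1.44; 24327 and 6346 counts) to tRNA-Ala-AGC-1-1 at 1.06 (1.00 to 1.12; 3805 and 5767 counts) and the scarce tRNA-Ala-AGC-8-1 at 1.32. In the other 5 families the leading row held less in shDis3l2 cells: tRNA-Ser-GCT-3-1 went from 64.9% to 47.0%, tRNA-Gly-CCC-1-1 from 60.5% to 47.0%, tRNA-Gln-CTG-2-1 from 64.6% to 53.3%, tRNA-Cys-GCA-3-1 from 73.04% to 61.97% and tRNA-Glu-TTC-2-1 from 58.5% to 48.4%. The same row led in both libraries in 33 of the 38 families.

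**Figure D3:**
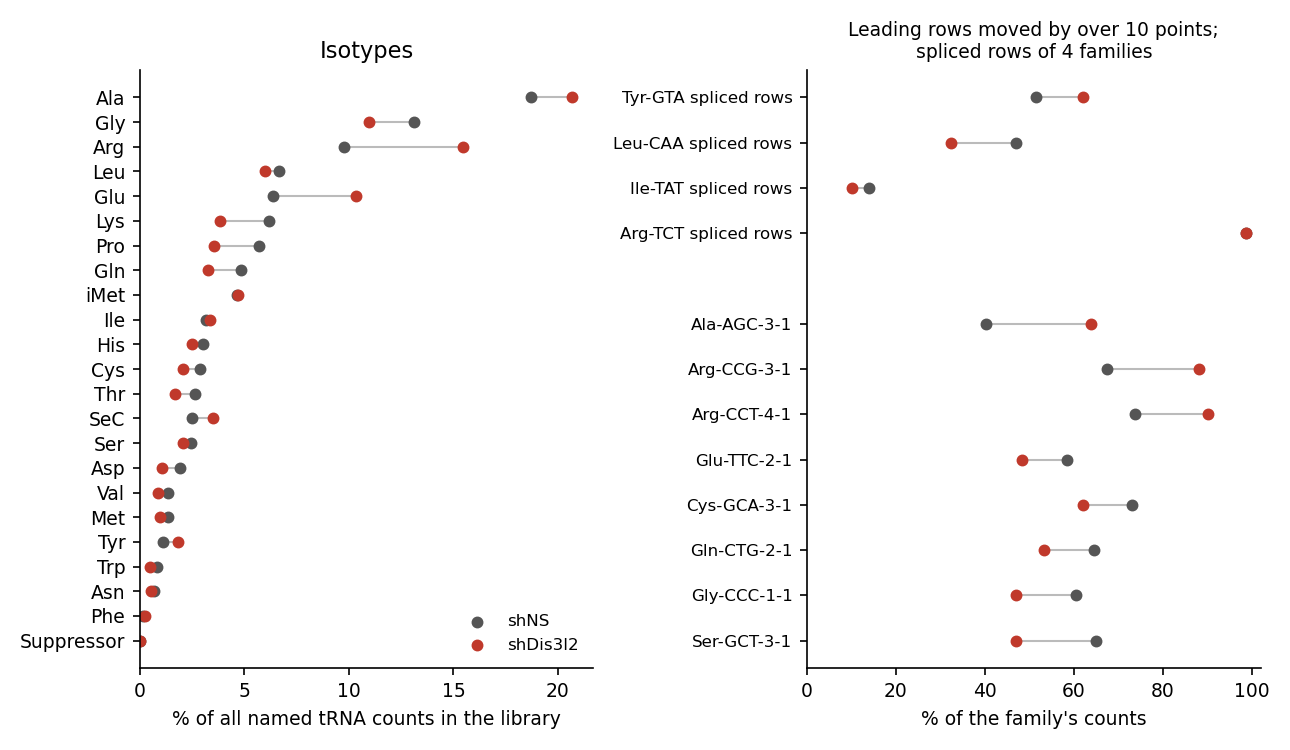
Left, share of all named tRNA counts held by each isotype (x axis, percent) in shNS (grey) and shDis3l2 cells (red). Right, share of a family's counts held by its leading row in the 8 families where it moved by over 10 points, and by spliced rows in 4 families. Arginine and glutamate show the widest gaps upward at left, and tRNA-Ala-AGC-3-1 the widest at right.

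Among single tRNA rows, the largest ratio belonged to a scarce one. tRNA-Gly-CCC-2-1 had 44 counts in shNS cells and 255 in shDis3l2 cells (3.00, 2.53 to 3.49), in a family whose sum stood at 0.05. tRNA-Ala-AGC-8-1 was higher from 59 to 107 counts (1.32, 0.85 to 1.81), and stood at 1.05 with totals. tRNA-Ala-TGC-1-1 (2214 and 3440 counts; 1.10, 1.02 to 1.18) and tRNA-Glu-TTC-3-1 (683 and 1047 counts; 1.08, 0.94 to 1.22) were higher with TMM and inside the rule with totals, at 0.83 and 0.81. The lowest row was tRNA-Arg-TCT-5-1, with 172 counts in shNS cells and 21 in shDis3l2 cells (-2.57, -3.30 to -1.91). Its spliced form was lower too, from 1719 to 313 counts (-2.00, -2.17 to -1.82).

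Further lower rows were tRNA-Trp-CCA-1-1, with 99 and 14 counts (-2.36, -3.28 to -1.55), and tRNA-Gln-TTG-1-1, with 22874 and 4984 counts (-1.74, -1.78 to -1.69). tRNA-Arg-TCG-1-1 had 14479 and 3373 counts (-1.64, -1.69 to -1.59). Of the threonine family Thr-AGT, 3 rows were lower together: tRNA-Thr-AGT-5-1 at -1.59, tRNA-Thr-AGT-2-1 at -1.53 and tRNA-Thr-AGT-4-1 at -1.48. These 6 rows and both lower Ala-AGC rows named above passed the rule under every scaling tried other than exon-piece totals.

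The share of a family's counts that fell on spliced rows again does not depend on the scaling. Spliced and unspliced rows of a family have sequence in common, so this share depends on how reads were divided between them. Splicing itself was not measured. The 4 families with an intron did not move alike. Spliced rows held 51.5% of Tyr-GTA in shNS cells (51.1% to 51.9%) and 62.0% in shDis3l2 cells (61.6% to 62.4%). Leu-CAA went the other way, from 47.0% (46.7% to 47.3%) to 32.4% (32.0% to 32.8%), and Ile-TAT from 14.03% to 10.17%. Arg-TCT counts fell almost wholly on spliced rows in both libraries, at 98.8%.

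With TMM mainly the spliced rows stood behind the Tyr-GTA share. Spliced tRNA-Tyr-GTA-2-1 went from 8250 to 14344 counts (1.26, 1.22 to 1.30) and spliced tRNA-Tyr-GTA-3-1 from 12911 to 13734 (0.55, 0.52 to 0.59). The unspliced rows summed to 27047 and 20396 counts (0.06, 0.03 to 0.08). Spliced and unspliced sums stood at 0.41 and -0.21 with totals, and at 0.32 and -0.29 with totals without the largest row and the run. The part of each form in the share thus depended on the scaling. For Leu-CAA the spliced sum stood at -1.01 (-1.03 to -0.98) and the unspliced sum at -0.12 (-0.14 to -0.10). Of 14 spliced rows measured 1 was higher and 3 lower, beside 11.7% and 24% of all rows, with a median of -0.56. With totals 0 were higher and 6 lower, beside 6.43% and 34.9%. Of 19 unspliced rows of these families 0 were higher and 2 lower, beside the same 11.7% and 24% with TMM, with a median of -0.05, or 0.27 with totals without the largest row. In EVs of the same lines the spliced share was lower in shDis3l2 for Tyr-GTA (75.4% and 65.6%), Leu-CAA (91.8% and 90.5%), Ile-TAT (41.6% and 19.1%) and Arg-TCT (97.4% and 93.7%).

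SINE transcripts, which come from repeats copied by RNA polymerase III, were scarce in cells, at 0.00606% of whole-RNA counts in shNS and 0.0113% in shDis3l2. Of 15 rows 3 had at least 100 counts. The second SINE_B1_Mus2 row had 454 counts in shNS cells and 965 in shDis3l2 cells (1.55, 1.39 to 1.71), and the first 237 and 401 (1.22, 0.99 to 1.46). Each of these rows has the same counts, to within 1, as a transcript row, so these RNAs stand in both lists. The same holds for SINE_B1_Mm, SINE_B1_Mur4 and SINE_B1_Mus1 among the scarcer rows below. SINE_B2 had 1509 and 2024 counts, at 0.89 (0.79 to 0.98), inside the rule with TMM and at 1.20 with totals without the largest row.

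The scarcer SINE rows had hardly any counts in shNS cells. SINE_B1 had 19 and 64 counts (2.21, 1.46 to 3.04), SINE_B1_Mm 11 and 40 (2.32, 1.34 to 3.44) and RSINE1 9 and 35 (2.42, 1.34 to 3.66). SINE_B4 had 1 count in shNS cells and 38 in shDis3l2 cells, a ratio of 5.71 with an interval from 3.14 to 11.05. SINE_B1_Mur4 and SINE_B1_Mus1 had 0 counts in shNS cells and 48 and 22 in shDis3l2 cells. Against a floor of 3 counts per library their log2 ratios are at least 4.46 and 3.34. All 9 SINE rows with at least 20 counts over both libraries lay above 0, with a median of 2.32. The scarcer rows named here each had fewer than 20 counts in shNS cells, so they passed this minimum only through shDis3l2 cells. For them the direction is a description of detection. Beside the SINE rows, the 59 whole-RNA rows of all kinds with 20 to 99 counts had a median of 1.11, 10 of them at 0 in shNS cells and 0 in shDis3l2 cells. Those 59 rows were picked by the same kind of minimum and include the scarcer SINE rows, some of them also listed as transcripts. The part that depth or RNA quality of the shNS library played in these ratios was not tested.

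4.5S RNA, a short rodent RNA of RNA polymerase III, had 72277 counts in shNS cells and 27989 in shDis3l2 cells. Its log2 ratio was -0.91 (-0.93 to -0.89) with TMM, -0.59 with totals without the largest row and -1.17 with totals, so it passed the rule with the last alone of these 3 scalings. It lay below 0 with all of them.

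Transcripts outside the run included the largest difference among rows with at least 10000 counts over both libraries. That transcript, ENSMUST00000198477, had 23150 counts in shNS cells and 138001 in shDis3l2 cells, 8.21-fold higher with TMM (log2 3.04, 3.02 to 3.06) and 10.2-fold higher with totals without the largest row. ENSMUST00000083988 was 2.87-fold higher with TMM (log2 1.52) and 3.57-fold higher without itself in the totals. Another transcript, the second largest in shDis3l2 cells, went from 1416580 to 2513001 counts (1.29, 1.29 to 1.29). Together the 2 largest transcripts outside the run held 53.8% of whole-RNA counts in shDis3l2 cells.

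Of 320 transcripts measured outside the run, 50 were higher and 70 lower with TMM, beside 11.7% and 24% of all rows. With totals without the largest row the counts were 95 and 40, beside 21.1% and 14.4%, and with totals 28 and 96, beside 6.43% and 34.9%. The median over the 354 with at least 20 counts was 0.35, 0.67 without the largest row and 0.09 with totals. Of the 42 with at least 100000 counts over both libraries, 11 were higher and 1 lower with TMM, beside those 11.7% and 24%, at a median of 0.71. They were 22 and 1 without the largest row, and 7 and 2 with totals, at medians of 1.03 and 0.44. With exon-piece totals all 42 lay below 0. The extremes were scarce rows. One transcript had 466 counts in shNS cells and 2 in shDis3l2 cells (-7.40, -10.45 to -5.54), and another 0 and 200 counts, at least 6.52 on the log2 scale against the floor.

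Pieces of transcripts, which the authors list beside the whole RNAs, were far more often detected in shDis3l2 cells. Intron pieces above 0 numbered 19433 in shNS cells and 115493 in shDis3l2 cells, with 54657 to 95927 in the 5 EV libraries. Exon pieces above 0 numbered 6227 and 19766, and UTR pieces 6843 and 22185. The totals behind them were 5413477 and 6587770 counts for introns, 27300 and 555760 for exons and 30333884 and 27750570 for UTRs. By number of pieces detected, the shNS cell library was the lowest of all 7 in each of the 3 sets, while the shDis3l2 cell library was the highest in introns alone.

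Most intron pieces that passed the count minimum did so through the shDis3l2 library. Of 5755 with at least 100 counts over both, 4911 were higher (85.3%) and 506 lower (8.79%) with the TMM of the set, and 3179 of them had 0 counts in shNS cells. Such a piece had to be high in shDis3l2 cells, so this count is a description of detection. Among the 63 intron pieces with at least 10000 counts in shNS cells, which held 91.5% of intron counts there, the ratio had no direction apart from the scaling. Its median was 0.06 with the TMM of the whole RNAs and 0.38 with whole-RNA totals without the largest row, but -0.68 with the totals of the intron set and -2.26 with its TMM. The same 63 pieces held 55.6% of intron counts in shDis3l2 cells.

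Exon counts in shDis3l2 cells came from few pieces. There were 6 exon pieces of 4 transcripts with at least 10000 counts each in shDis3l2 cells, and they held 438692 counts or 78.9% of the exon total, against 186 counts in shNS cells. In the 5 EV libraries the same 6 pieces held 34056 to 81982 counts. Of 90 exon pieces measured, 63 were higher (70%) and 3 lower (3.33%) with the TMM of the set, and 45 (50%) and 41 (45.6%) with its totals. Of the 90, 33 had 0 counts in shNS cells and 0 had 0 counts in shDis3l2 cells, so here too many passed the count minimum through the library where they were high. UTR pieces followed the whole RNAs more closely, since 125 of the 276 with at least 1000 counts had the count of a whole-RNA row to within 1% in both cell libraries, and these held 90.5% of UTR counts in shNS cells. Of 470 UTR pieces measured, 89 were higher (18.9%) and 184 lower (39.1%) with the TMM of the set. This balance depended on the scaling. It was 129 (27.4%) and 121 (25.7%) with the TMM of the whole RNAs. With the totals of the set without its largest row it was 192 (40.9%) and 85 (18.1%).

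**Figure D4:**
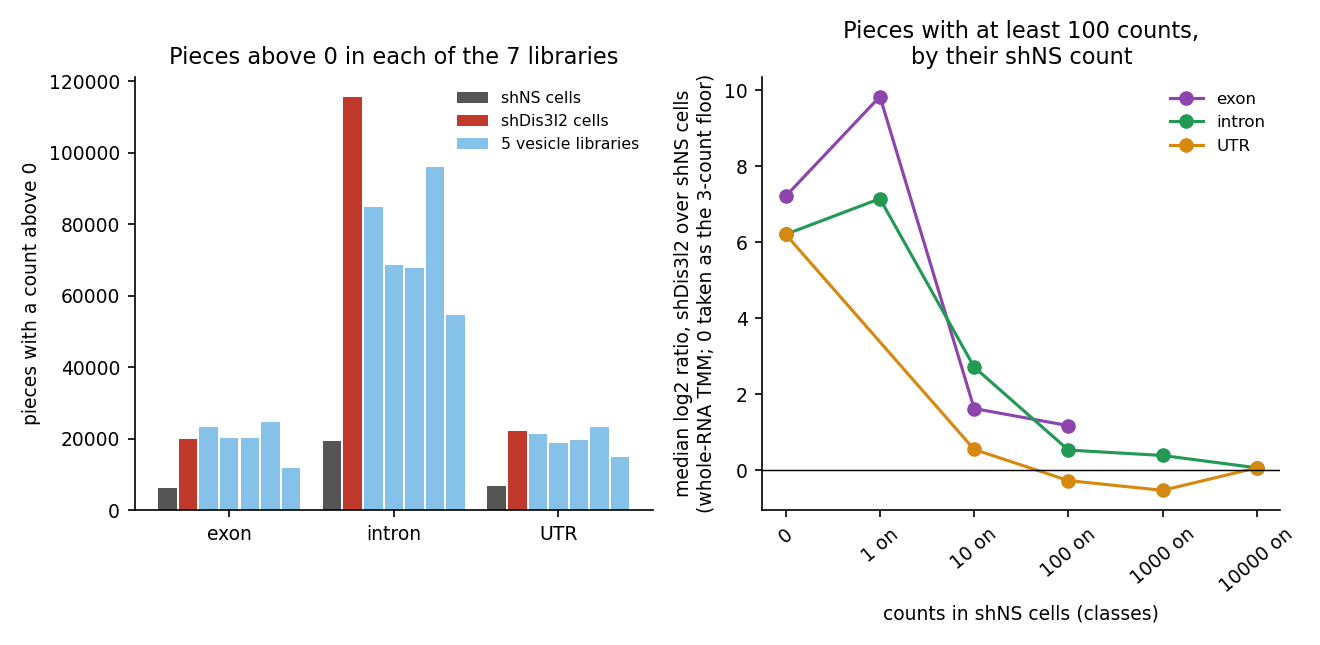
Left, number of exon, intron and UTR pieces with a count above 0 in each of the 7 libraries (shNS cells grey, shDis3l2 cells red, EVs blue). Right, median log2 ratio of shDis3l2 over shNS cells with whole-RNA TMM (y axis) for pieces with at least 100 counts over both, in classes of their shNS count (x axis); classes under 100 hold by construction pieces that are high in shDis3l2 cells. The intron median is 0.06 in the class of 10000 counts and more.

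Knockdown ratios in cells were set beside those in EVs of the same lines for the 379 whole-RNA rows with at least 100 counts in both pairs. The signs matched in 201 rows and were opposite in 178. Across the 149 tRNA rows the ratios had a Spearman rho of 0.16, and across the 212 transcripts of -0.03. These are descriptions across rows of the same 4 libraries. 4.5S RNA was on opposite sides, at -0.91 in cells and 0.58 (0.57 to 0.58) in EVs, where it went from 1131562 to 1233053 counts. So was ENSMUST00000083988, at 1.52 in cells and -0.54 (-0.55 to -0.54) in EVs. ENSMUST00000198477 stood at 0.25 (0.24 to 0.25) in EVs. The arginine families were near 0 in EVs, Arg-CCG at -0.04 (-0.04 to -0.03) and Arg-CCT at 0.21 (0.20 to 0.22), and unspliced Ile-TAT stood at 0.10 in cells and 1.11 (1.08 to 1.14) in EVs. Whether the ratio differs between cells and EVs could not be tested with 1 library per group.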

How the data were processed

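The authors deposited 1 table of estimated counts (expected counts, not scaled between libraries) with 1 column per library. The submitters' processing notes name Salmon, Novoalign, cutadapt and UMI-tools, with the builds mm10 and GRCm38. Their versions, their order and any deduplication: not given in the sources used here. Adapters carried a 12 nt random sequence and libraries had 15 PCR cycles, per the labels' protocols. Estimated counts were rounded to whole numbers. Scaling used edgeR 4.0.16 (TMM) and, as alternatives, totals, DESeq2 1.42.0 size factors and others (R 4.3.3, Python 3.11.15, scipy 1.17.1). Ratios have exact conditional binomial 95% intervals, and shares exact Clopper-Pearson intervals. No test was run. List medians used rows with at least 20 counts. Steps were run on simulated libraries drawn from a shared averaged profile, with known changes in less abundant rows only. The simulation held no shift of the most abundant RNAs, so it could not show how the scalings behave under such shifts.

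Members, lists and named rows were chosen with earlier results of these data known. Named rows were the 10 largest ratios each way among tRNA, spliced tRNA, SINE and 4.5S rows past the rule, families past it, members of small lists, and at most 2 transcript IDs higher and 2 lower. Lists by gene symbol (Dis3l2 substrates, immune genes, cell type markers) were not matched and have no result.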

Additional observations from a re-analysis of the deposited data

Results flagged for a closer look

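The results here lay on opposite sides of 0 in cells and in EVs under the same knockdown, with EV intervals that excluded 0. The differences were not tested, since each group is 1 library. Each is given as the log2 ratio in cells minus that in EVs, with TMM. The sum of the run of 24 transcripts differed by -2.53 (-1.80 in cells and 0.73 in EVs), ENSMUST00000082387 by -2.64 (-2.09 and 0.55) and ENSMUST00000082423 by -2.60 (-1.98 and 0.62). ENSMUST00000083988 differed by 2.06 (1.52 and -0.54) and 4.5S RNA by -1.48 (-0.91 and 0.58). The second SINE_B1_Mus2 row differed by 1.86 (1.55 and -0.31), tRNA-Glu-TTC-3-1 by 1.66 (1.08 and -0.58) and tRNA-Ala-AGC-4-1 by -1.82 (-1.48 and 0.35). Of the anticodon families past the rule, Arg-CCG differed by 1.21 (1.17 and -0.04) and Asp-GTC by -1.30 (-1.16 and 0.14). For Arg-CCG the EV value was close to 0.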

How the results depend on the processing

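Scaling set the counts. Higher and lower whole-RNA rows numbered 60 and 123 with TMM, 108 and 74 with totals without the largest row, 109 and 74 with tRNA totals, 33 and 179 with totals, 28 and 195 with totals without the largest row and the run (added after seeing the data), and 1 and 511 with exon-piece totals. The limit of 4-fold left 11 and 16, and higher rows numbered 91 from 20 counts and 140 with no minimum. Families, 2 higher and 9 lower, became 0 and 22 (totals), 0 and 29 (without the largest row and the run), 0 and 52 (exon-piece totals), with 0 lower for totals without the largest row and for tRNA totals and 3 lower for the upper quartile. In the order totals without the largest row, totals, tRNA totals, exon-piece totals, and without the largest row and the run, medians were -0.10, -0.68, -0.085, -5.22 and -0.76 for tRNAs, 0.27, -0.32, 0.28, -4.86 and -0.40 for unspliced tRNAs of intron families, and 0.61, 0.024, 0.62, -4.52 and -0.059 for all transcripts (main 0.29, upper quartile 0.44). Exon-piece totals, a 20.4-fold factor, put spliced tRNAs at -5.37 and SINEs at -2.49. They turned every named row that was higher below 0: tRNA-Ala-AGC-1-1 (-3.75), tRNA-Glu-TTC-3-1 (-3.73), tRNA-Ala-TGC-1-1 (-3.71), both SINE_B1_Mus2 rows (-3.59 and -3.26), spliced tRNA-Tyr-GTA-2-1 (-3.55), tRNA-Ala-AGC-8-1 (-3.49), tRNA-Arg-CCT-4-1 (-3.43), tRNA-Arg-CCG-3-1 (-3.25), tRNA-Gly-CCC-2-1 (-1.81), ENSMUST00000083988 (-3.29) and ENSMUST00000198477 (-1.77), with families Arg-CCG at -3.64 and Arg-CCT at -3.71. Under the other scalings 0 named rows or families changed sign. Of their 216 values 173 kept their side of the rule, 41 fell inside it and 2 moved past it. Higher and lower pieces at minimums of 20 and 500 counts were 166 and 39, then 28 and 1 (exons), 18547 and 1383, then 318 and 216 (introns), and 648 and 299, with 16 higher at 500 (UTRs). Without the set's largest piece in the totals, lower pieces were 40 (exons) and 148 (introns), and UTR pieces 192 higher and 85 lower. Set totals gave 41 lower exon and 127 lower intron pieces, and whole-RNA TMM 52 lower intron and 121 lower UTR pieces. The spliced shares, the count of 8 families and the 178 rows of opposite sign stayed within their limits. SINE rows under 100 counts have wide counting intervals, as for SINE_B4 (3.14 to 11.05). No paired analysis was possible because each group has 1 library. No library could be left out.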
